A study of Mus musculus with 8 samples.

Results

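Cytochrome P450 genes of families 1 to 3 were followed in the livers of mice labelled as knockouts of the cytosolic malic enzyme gene Me1 (older symbol Mod1) and of their wild-type littermates. Members were all genes of the array whose current symbol is Cyp1, Cyp2 or Cyp3 followed by a letter and then a number. This gave 44 genes read by 51 probes, out of 19896 named genes and 39556 probes. Each mouse was hybridised on its own 2-colour array with a reference made of pooled liver RNA of 5 wild types, so a value is the log2 ratio of one mouse to that pool and 0 means the level of the pool. The wild types carry the numbers 14, 15, 21, 22 and 26 and the knockouts 27, 31 and 33. The sources used here give no age, sex or diet and do not say how the knockout allele was made. A difference is the mean log2 ratio of 3 knockouts minus that of 5 wild types, given with its standard error from limma.

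These families are haem enzymes of the endoplasmic reticulum that add an oxygen atom to drugs, environmental chemicals, steroids, bile acids and fatty acids, with electrons passed from NADPH by the reductase Por. Hepatocytes are their main site, most of the abundant forms lie around the central vein, and many are switched on by the xenobiotic receptors CAR (Nr1i3), PXR (Nr1i2) and AHR. In mice several members differ by sex under the control of growth hormone, and inflammation is known to lower many of them. Me1 makes NADPH in the cytosol for the synthesis of fatty acids.

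Facts of the whole series bear on every value. The single Me1 probe gave a log2 ratio of 0.82, -0.64, -0.70, -1.73 and 0.70 in wild types 14, 15, 21, 22 and 26, and in knockouts 27, 31 and 33 it gave 0.82, -0.81 and -0.68. The groups overlapped (difference 0.09 ± 0.64, adjusted p = 0.972 in limma), and the sources used here do not place the probe against the altered stretch of Me1. The labels list the dye Cy3 before Cy5 on all 8 arrays and name the pool before the mouse, but do not state which dye the pool carried or which way the ratio runs. Read as log10 of mouse over pool, the mean ratio over the 5 wild types had a median of 0.999 over the 300 probes that varied most among them, against 1.33 with the sign turned, which speaks to the wild-type arrays only. The same probes read as log2 gave 0.968, so this check does not settle the log base, on which the size of every value depends. Over all probes knockout 33 correlated at r = -0.39 with wild type 14 and at 0.26 with wild type 22. The knockouts correlated at 0.42 to 0.62 with each other, and the wild types at -0.46 to 0.39 with each other. These correlations do not show which way the knockout arrays run against the wild types, which is unsettled. If all 8 ran the other way, every difference would keep its size and p and take the opposite sign. Higher and lower refer to the values as deposited, and values with the knockout sign turned are given for the counts, the gene lists and, here or in the closing section, the members described by value whose difference then changes sign. The array of wild-type mouse 22 had the widest spread of all probes (SD 0.291 on the log2 scale, against 0.127 to 0.191 in the other wild types and 0.185 to 0.273 in the knockouts). With 8 arrays, their number limits the precision.

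No P450 member differed between the genotypes beyond the spread between mice once all features were tested together. Of the 44 members, 21 were higher and 23 lower in the knockout, with a median of -0.01, against 0.01 over all 36169 features. In limma 0 of 44 passed an adjusted p of 0.05, a threshold that 0.0276% of all features passed. An unadjusted p under 0.05 was found for 9 of 44 members (20.5%), against 9.28% of all features and 11.3% of the named genes. The members higher in the knockout at that level were Cyp2c23, Cyp2c40, Cyp2d22, Cyp2f2 and Cyp2g1, 5 genes, where 4.26% of all features were higher. The members lower were Cyp2b10, Cyp2c38, Cyp3a16 and Cyp3a41a, 4 genes, where 5.02% of all features were lower. This split of 5 higher and 4 lower became 4 and 6 with array medians set to 0, and 6 and 3 after quantile normalization.

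In 4 members (9.09%) all 3 knockouts lay outside the range of the 5 wild types: Cyp2c23, Cyp2c40 and Cyp2s1 were higher and Cyp3a16 was lower. Over all features 7.21% did not overlap, 4.35% being higher and 2.85% lower, so the share among the P450 genes lay near that background. When the 3 knockout arrays were given the opposite sign, 7 members were higher and 4 lower at an unadjusted p of 0.05, where 11.5% of all features passed (5.96% higher and 5.52% lower). Again 0 members passed the adjusted threshold in limma, which 0.0221% of all features then passed. Under that sign 9 members did not overlap, 7 of them higher and 2 lower, against 10.8% of all features (3.78% higher and 7.05% lower).

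**Figure D1:**
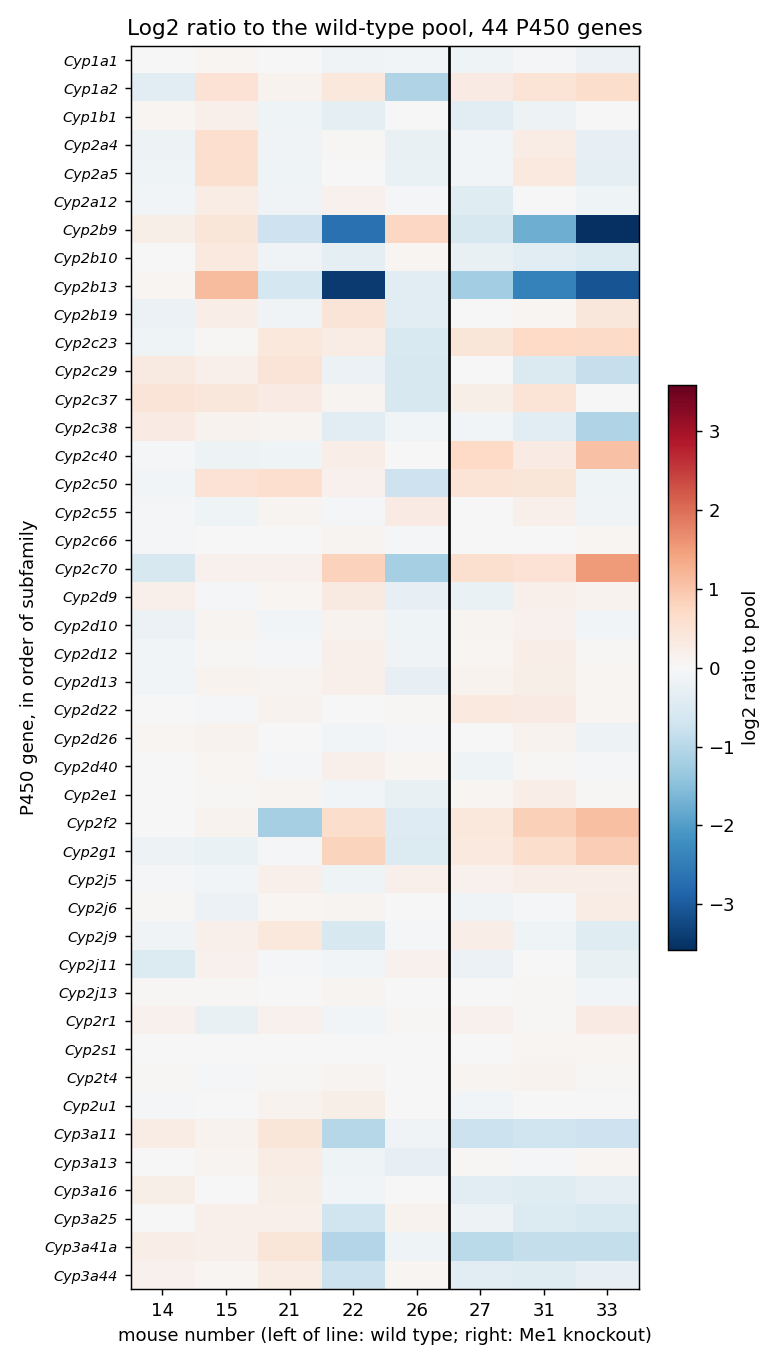
Log2 ratio to the wild-type pool of 44 P450 genes (rows, in order of subfamily) in each of the 8 mice (columns, the line divides 5 wild types from 3 knockouts). Cyp2b13 and Cyp2b9 are the darkest rows, at -3.41 and -2.66 in wild-type mouse 22 and at -3.09 and -3.58 in knockout mouse 33.

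**Figure D2:**
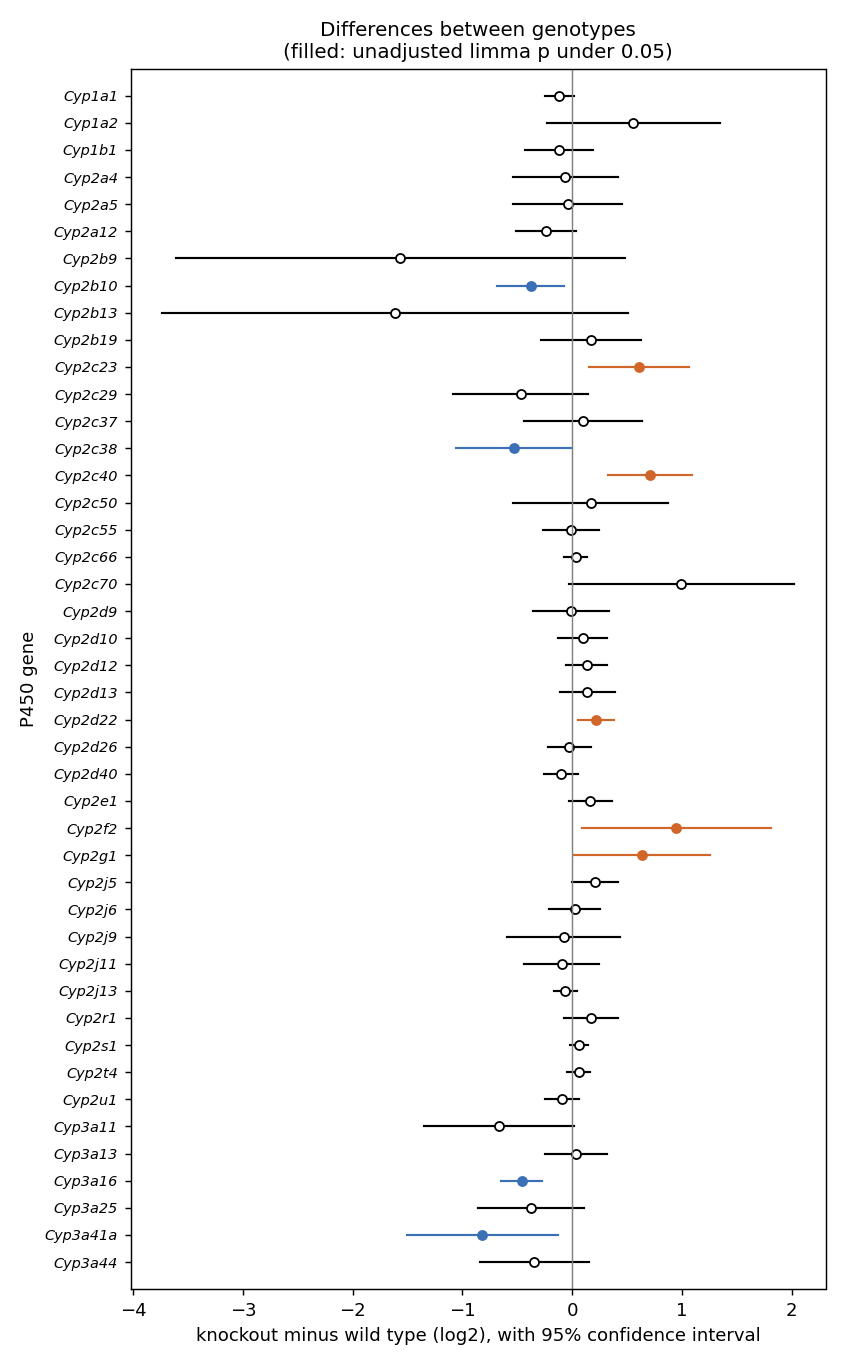
Knockout minus wild type (log2) for each of the 44 P450 genes, with the 95% confidence interval of the limma fit. Filled points are the 9 genes with an unadjusted p under 0.05, 5 of them higher and 4 lower, and the intervals of Cyp2b9 and Cyp2b13 are the widest.

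The Cyp2b genes, the subfamily known as targets of CAR, held the members with the lowest values. Cyp2b9 and Cyp2b13 are forms known from female mouse liver. Cyp2b13 stood at 0.06, 1.13, -0.62, -3.41 and -0.37 in wild types 14, 15, 21, 22 and 26, against -1.25, -2.43 and -3.09 in knockouts 27, 31 and 33. The knockouts lay below 4 of the 5 wild types, and wild-type mouse 22 lay below all of them. The difference of -1.61 ± 0.92, a 3.06-fold lower level, was within the spread between mice (95% confidence interval -3.74 to 0.51, adjusted p = 0.62).

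Cyp2b9 ran alongside, at 0.21, 0.44, -0.74, -2.66 and 0.74 in the wild types in the same order and at -0.59, -1.75 and -3.58 in the knockouts. Knockout mouse 27 lay within the range of the other wild types here. The difference was -1.57 ± 0.89 (adjusted p = 0.617). The difference of Cyp2b9 was -0.76 without knockout mouse 33 and -2.26 without knockout mouse 27. Without wild-type mouse 22 the differences were -2.31 ± 0.53 for Cyp2b13 (unadjusted p = 0.00318, adjusted p = 0.134) and -2.13 ± 0.68 for Cyp2b9 (0.0162 and 0.215). With the knockout sign turned they were 2.90 (unadjusted p = 0.0135, adjusted p = 0.35) and 2.37 (0.028 and 0.388).

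Cyp2b10, the form most used as a readout of CAR in mice, spanned a far narrower range. It stood at 0.02, 0.34, -0.14, -0.31 and 0.06 in the wild types and at -0.27, -0.41 and -0.48 in the knockouts. All 3 knockouts were below 0, and wild-type mouse 22 lay among them. The difference of -0.38 ± 0.13 had an unadjusted p of 0.0213 and an adjusted p of 0.483. Under the turned sign it was 0.39. Its 2 probes gave -0.23 ± 0.07 and -0.53 ± 0.22. They placed wild-type mouse 22 differently, at -0.04 and -0.57. On the first probe all 3 knockouts lay below all wild types, and only the second had mouse 22 among the knockouts. In single mice Cyp2b10 differed from Cyp2b13 by up to 3.11, whereas Cyp2b9 and Cyp2b13 differed by at most 1.11. The remaining measured Cyp2b gene, the keratinocyte form Cyp2b19, had a positive difference that was below its standard error.

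The promoter windows of Cyp2b9 and Cyp2b13 are shown because these genes had the widest range of all members and their windows are nearly the same. Each window runs from 250 bases before to 50 bases after the gene's start, from RefSeq on GRCm38.p6, on the plus strand at chr7:26173159-26173458 for Cyp2b9 and chr7:26061245-26061544 for Cyp2b13. The windows were identical at 298 of 300 bases (99.3%), and capitals mark the bases that differ, T48C and C104T, with the base of Cyp2b9 first and positions counted from 1 at the 5′ end. The window of Cyp2b10 matched either of them at 71.7% of aligned positions.
Cyp2b9: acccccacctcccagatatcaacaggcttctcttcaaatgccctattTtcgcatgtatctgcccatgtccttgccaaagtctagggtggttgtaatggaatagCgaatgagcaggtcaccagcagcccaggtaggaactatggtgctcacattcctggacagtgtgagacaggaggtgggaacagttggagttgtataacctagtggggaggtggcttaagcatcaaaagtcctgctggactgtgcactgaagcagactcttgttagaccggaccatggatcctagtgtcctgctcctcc
Cyp2b13: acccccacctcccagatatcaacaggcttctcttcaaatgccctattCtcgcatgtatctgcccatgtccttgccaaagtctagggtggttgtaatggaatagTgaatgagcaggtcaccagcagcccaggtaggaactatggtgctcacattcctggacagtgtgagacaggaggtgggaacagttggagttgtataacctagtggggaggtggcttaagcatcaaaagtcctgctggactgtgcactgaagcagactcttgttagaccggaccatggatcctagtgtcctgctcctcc
Both windows hold AGGTCA, the half-site of many nuclear receptors, at bases 113 to 118. Searched on both strands, these letters occurred in 14 of the 38 members with a window and in 16.3% of all 32851 windows. A match of letters is a description and not a binding site. How much the probes of these genes read each other's transcript was not tested, since probe sequences were not used.

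The Cyp3a genes encode the steroid and drug hydroxylases that PXR is known to induce. Of the 6 measured genes, 5 were lower in the knockout and 1 was higher, the median being -0.42 and the extremes -0.82 and 0.04. With the knockout sign turned 5 were higher and 1 lower (median 0.44). Cyp3a16, known as a form of fetal and young liver, had the smallest p of all members as deposited (with the knockout sign turned Cyp2c40 had it). It stood at 0.22, 0.01, 0.22, -0.09 and 0.00 in wild types 14, 15, 21, 22 and 26, against -0.36, -0.44 and -0.35 in the knockouts. All 3 knockouts lay below all 5 wild types, mouse 22 included. The difference of -0.46 ± 0.08, a 1.37-fold lower level, had an unadjusted p of 4.67e-04 (95% confidence interval -0.65 to -0.27), but its adjusted p was 0.217. The difference ran from -0.50 to -0.42 with any 1 mouse left out.

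Cyp3a11, the main form of the adult mouse liver, stood at 0.28, 0.13, 0.42, -1.03 and -0.13 in the wild types. The knockouts were close to each other, at -0.77, -0.70 and -0.74, and only wild-type mouse 22 lay below them. Cyp3a41a, a form known from female liver, gave almost the same picture, at 0.23, 0.17, 0.43, -1.05 and -0.15 in the wild types and -0.98, -0.85 and -0.84 in the knockouts. The differences were -0.67 ± 0.30 for Cyp3a11 (unadjusted p = 0.054, adjusted p = 0.543) and -0.82 ± 0.30 for Cyp3a41a (0.0257 and 0.493). The values of these genes were within 0.21 of each other in every mouse. Reads of one Cyp3a gene by the probe of another were not tested, so the Cyp3a genes may not be separate measurements. Cyp3a44, another form known from female liver, stood at -0.77 in wild-type mouse 22 and between 0.08 and 0.27 in the other wild types, against -0.41, -0.44 and -0.30 in the knockouts (-0.35 ± 0.22, adjusted p = 0.646).

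Calls in this subfamily depended on single mice and on the weighting. The unadjusted p of Cyp3a16 stayed under 0.05 with any 1 mouse left out, whereas that of Cyp3a41a did so in 2 of 8 such fits, those without wild-type mouse 22 or 26. Without mouse 22 Cyp3a41a stood at -1.06 ± 0.13 and Cyp3a44 at -0.53 ± 0.06, and both passed the adjusted threshold (adjusted p = 0.0462 and 0.0397 in limma). Without both mouse 22 and knockout mouse 33, 0 members passed in limma, and the smallest adjusted p was 0.103. In that fit 16 members (36.4%) had an unadjusted p under 0.05, against 11.7% of all features. With array weights and all mice kept, Cyp3a16 and Cyp3a41a passed. Without mouse 22 and with no weights, Cyp3a11 stood at -0.91 ± 0.12 (adjusted p = 0.0509 in limma) and Cyp3a16 at -0.50 ± 0.07 (adjusted p = 0.0571). With the knockout sign turned, the differences over all mice were 0.31 for Cyp3a16, 0.80 for Cyp3a11, 0.96 for Cyp3a41a and 0.42 for Cyp3a44. Cyp3a13, a form also found in the intestine, did not share this pattern, with wild types from -0.29 to 0.27, knockouts at 0.05, -0.07 and 0.08 and a difference of 0.04 ± 0.12 (95% confidence interval -0.24 to 0.31).

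The promoter windows of 4 Cyp3a genes are shown with those of Cyp2c40 and Cyp2c70, because 5 of these 6 hold CAAAGTCCA, letters known from binding of the liver nuclear receptor HNF4A, within 109 bases before the start. Searched on both strands, CAAAGTCCA occurred in 5 of 38 member windows (13.2%) and in 0.475% of all windows. The windows lie on the minus strand of GRCm38.p6, at chr5:145879805-145880104 for Cyp3a11, chr5:145469674-145469973 for Cyp3a16, chr5:145720087-145720386 for Cyp3a41a, chr5:145805825-145806124 for Cyp3a44, chr19:39812765-39813064 for Cyp2c40 and chr19:40187237-40187536 for Cyp2c70. Capitals mark CAAAGTCCA and, in Cyp3a44, the bases aligned to it.
Cyp3a11: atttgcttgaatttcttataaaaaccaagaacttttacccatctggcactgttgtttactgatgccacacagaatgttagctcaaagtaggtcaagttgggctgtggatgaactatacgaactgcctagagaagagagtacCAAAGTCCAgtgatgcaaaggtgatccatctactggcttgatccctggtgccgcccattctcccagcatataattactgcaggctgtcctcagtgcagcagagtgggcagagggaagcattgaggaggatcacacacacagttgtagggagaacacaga
Cyp3a16: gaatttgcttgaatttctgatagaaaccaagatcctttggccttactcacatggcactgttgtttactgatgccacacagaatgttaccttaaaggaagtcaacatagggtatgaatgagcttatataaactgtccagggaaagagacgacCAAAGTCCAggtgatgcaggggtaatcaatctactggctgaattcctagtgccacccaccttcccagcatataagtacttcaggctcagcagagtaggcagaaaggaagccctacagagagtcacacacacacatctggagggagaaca
Cyp3a41a: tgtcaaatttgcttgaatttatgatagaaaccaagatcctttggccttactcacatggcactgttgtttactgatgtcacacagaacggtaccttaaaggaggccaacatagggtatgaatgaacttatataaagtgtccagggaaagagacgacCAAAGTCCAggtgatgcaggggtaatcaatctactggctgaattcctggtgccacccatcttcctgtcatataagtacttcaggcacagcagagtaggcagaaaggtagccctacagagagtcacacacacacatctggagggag
Cyp3a44: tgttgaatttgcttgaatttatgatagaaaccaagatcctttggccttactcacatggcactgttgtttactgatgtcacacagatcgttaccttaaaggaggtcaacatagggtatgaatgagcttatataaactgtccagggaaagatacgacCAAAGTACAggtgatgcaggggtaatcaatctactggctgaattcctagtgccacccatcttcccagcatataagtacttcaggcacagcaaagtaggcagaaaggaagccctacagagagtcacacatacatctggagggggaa
Cyp2c40: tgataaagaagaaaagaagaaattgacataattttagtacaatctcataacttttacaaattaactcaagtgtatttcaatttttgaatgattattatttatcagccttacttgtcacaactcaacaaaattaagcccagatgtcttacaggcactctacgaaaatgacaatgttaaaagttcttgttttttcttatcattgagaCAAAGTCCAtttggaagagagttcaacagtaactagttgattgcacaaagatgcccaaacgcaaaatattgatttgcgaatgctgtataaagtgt
Cyp2c70: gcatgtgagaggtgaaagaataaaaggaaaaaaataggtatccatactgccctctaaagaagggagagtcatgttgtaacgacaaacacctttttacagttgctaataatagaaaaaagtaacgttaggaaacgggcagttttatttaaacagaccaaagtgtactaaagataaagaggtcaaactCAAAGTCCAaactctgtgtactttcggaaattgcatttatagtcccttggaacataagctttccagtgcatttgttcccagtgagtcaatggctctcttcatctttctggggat
Cyp3a44 differs from Cyp3a41a in these letters by C7A, with the base of Cyp3a41a first and positions counted from the first capital. Cyp3a16, Cyp3a41a and Cyp3a44 matched each other at 92.1% to 93.4% of aligned positions, and Cyp3a11 matched them at 70.6% to 75.5%. The genes with these letters did not lie on one side: the Cyp3a means were lower in the knockout, and those of Cyp2c40 and Cyp2c70 were higher. Other letters searched on both strands were GCGTG, the core of the AHR response element, in 6 of 38 member windows and 32.4% of all windows, TTCNNNGAA, the STAT5 pattern, in 1 and 8.3%, and TTATGTAA, the pattern of the clock factor Dbp and its relatives, in 0 and 0.938%. GCGTG was found in the windows of Cyp1a1, Cyp1b1, Cyp2b10, Cyp2j9, Cyp2j13 and Cyp2r1, and not in that of Cyp1a2.

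Cyp2c genes, which act on arachidonic acid, steroids and drugs, lay on both sides of the wild types. Of 9 measured genes 6 were higher and 3 lower in the knockout, with a median of 0.10, and with the knockout sign turned 2 were higher and 7 lower (median -0.35). Cyp2c40, which hydroxylates arachidonic acid in mice, stood at -0.04, -0.18, -0.16, 0.25 and 0.02 in wild types 14, 15, 21, 22 and 26, against 0.71, 0.29 and 1.05 in the knockouts. All knockouts lay above all wild types, though mouse 31 by only a small margin over mouse 22. The difference of 0.71 ± 0.17 (1.63-fold) had an unadjusted p of 0.0027 and an adjusted p of 0.324.

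Cyp2c23, listed on the array under the older symbol Cyp2c44 and known for making epoxides of arachidonic acid, stood at -0.14, 0.05, 0.38, 0.26 and -0.55 in the wild types and 0.43, 0.71 and 0.68 in the knockouts. The groups did not overlap, and the difference of 0.61 ± 0.20 had an unadjusted p of 0.0146 (adjusted p = 0.454). Cyp2c70, the enzyme that makes muricholic bile acids in mice, had the largest positive difference of all members. It stood at -0.58, 0.17, 0.15, 0.82 and -1.18 in the wild types and 0.57, 0.51 and 1.53 in the knockouts, so that wild-type mouse 22 lay among the knockouts. The difference of 0.995 ± 0.45 (1.99-fold) did not pass (unadjusted p = 0.0557, adjusted p = 0.545), and without knockout mouse 33 it was 0.66. With the knockout sign turned, the differences of Cyp2c40, Cyp2c23 and Cyp2c70 were -0.66, -0.61 and -0.75.

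Cyp2c38 and Cyp2c29 lay on the other side. Cyp2c38 stood at 0.28, 0.13, 0.11, -0.40 and -0.09 in the wild types and -0.09, -0.40 and -1.08 in the knockouts. Its difference of -0.53 ± 0.23 had an unadjusted p of 0.0497, and without knockout mouse 33 it was -0.25. Cyp2c29, an epoxygenase that CAR induces, stood between -0.58 and 0.46 in the wild types and at 0.02, -0.52 and -0.83 in the knockouts (-0.47 ± 0.27, adjusted p = 0.619), and without knockout mouse 33 the difference was -0.28. Cyp2c55, which CAR and PXR are known to induce strongly, differed by -0.01 ± 0.11 (95% confidence interval -0.27 to 0.25). The 2 probes of Cyp2c50, another epoxygenase, disagreed, with 0.52 ± 0.24 and -0.18 ± 0.39.

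Cyp2f2 and Cyp2g1 were higher in the knockout. Cyp2f2, a naphthalene-activating form of airway club cells that in liver marks the periportal zone, stood at 0.02, 0.14, -1.19, 0.63 and -0.47 in wild types 14, 15, 21, 22 and 26, against 0.39, 0.85 and 1.09 in the knockouts. Mouse 22 lay above knockout mouse 27, and mouse 21 was far below the others. The difference of 0.95 ± 0.38 (1.93-fold) had an unadjusted p of 0.0348 and an adjusted p of 0.508.

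Cyp2g1, a form of the olfactory mucosa, stood at -0.17, -0.23, -0.05, 0.80 and -0.48 in the wild types and 0.34, 0.62 and 0.87 in the knockouts. All wild types but mouse 22 lay below all knockouts. The difference was 0.64 ± 0.27 (unadjusted p = 0.0447, adjusted p = 0.53), and with 1 mouse left out it ran from 0.51 to 0.84 and kept an unadjusted p under 0.05 in 2 of 8 fits, those without wild-type mouse 22 (5.09e-04, adjusted p = 0.0821) or knockout mouse 27. The unadjusted p of Cyp2f2 was under 0.05 in 5 of 8 such fits. Turning the sign of the knockout arrays gave -0.60 for Cyp2f2 and -0.59 for Cyp2g1.

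**Figure D3:**
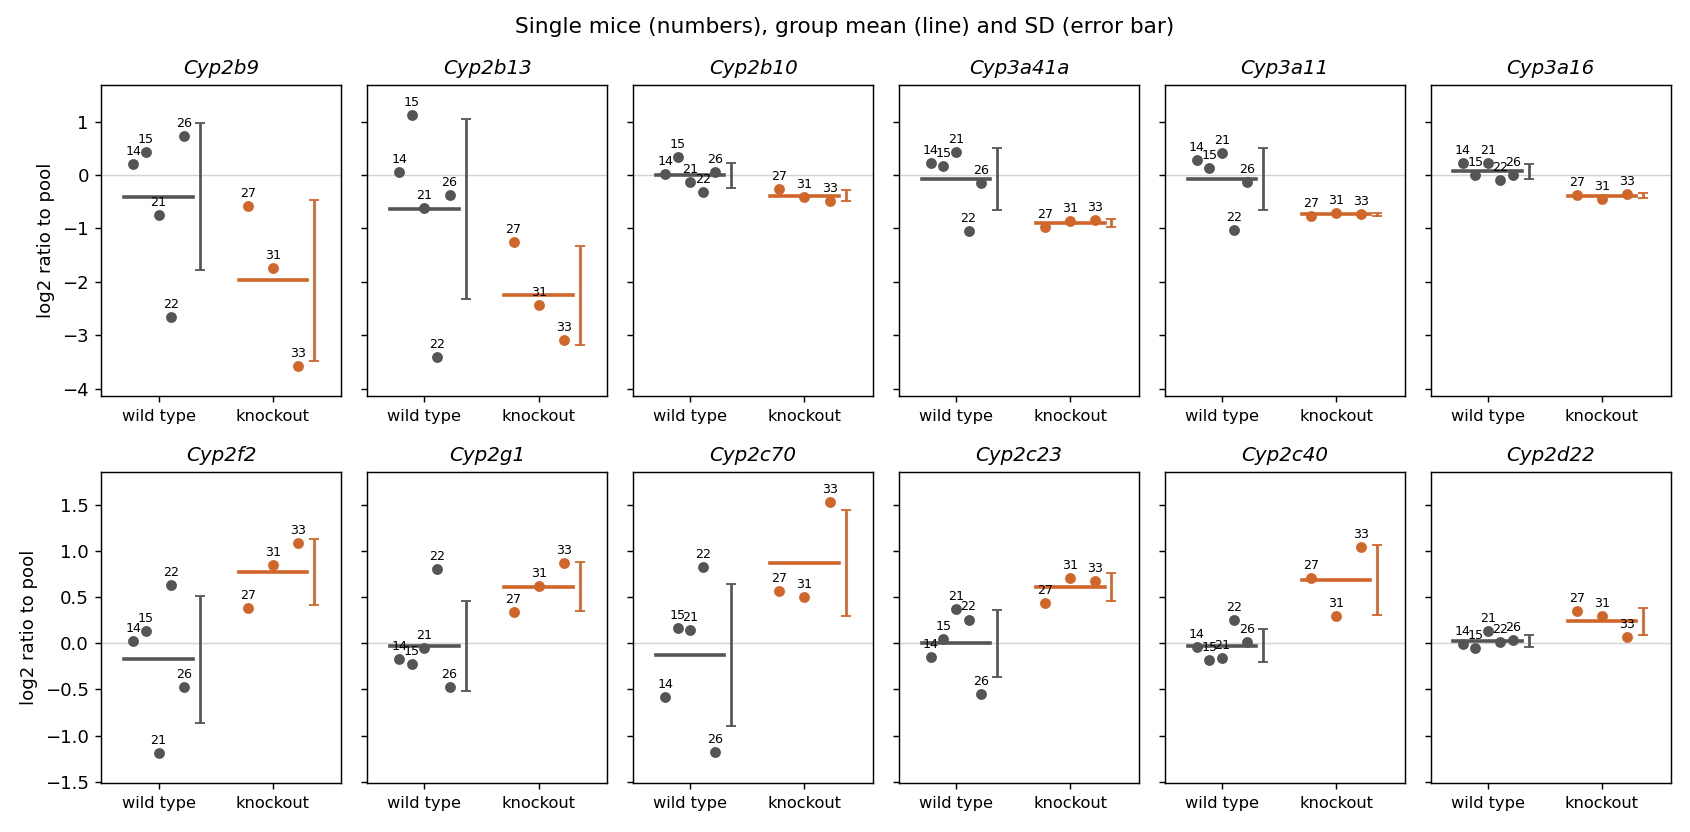
Log2 ratio to the pool in each mouse (points with mouse numbers), with the group mean (line) and SD (error bar), for 6 P450 genes with lower knockout means (upper row) and 6 with higher ones (lower row). Among these 12 genes Cyp3a16, Cyp2c23 and Cyp2c40 show no overlap, and wild-type mouse 22 lies among or beyond the knockouts in Cyp2b9, Cyp2b13, Cyp2b10, Cyp3a41a, Cyp3a11, Cyp2f2, Cyp2g1 and Cyp2c70.

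Family 1, the AHR-inducible genes, gave 1 higher and 2 lower of 3. Cyp1a1, which oxidises polycyclic aromatic hydrocarbons, stayed within -0.21 to 0.07 in all 8 mice (-0.12 ± 0.06, adjusted p = 0.563). Cyp1a2, a constitutive liver form that acts on caffeine and aromatic amines, varied far more, at -0.41, 0.52, 0.13, 0.39 and -1.07 in the wild types and 0.29, 0.49 and 0.64 in the knockouts. Its difference of 0.56 ± 0.34 (adjusted p = 0.642) was within the spread of the wild types, and without wild-type mouse 26 it was 0.31. Cyp1b1, mainly an extrahepatic form, differed by -0.12 ± 0.13.

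The Cyp2a genes hydroxylate steroids and coumarin. Cyp2a5, the coumarin hydroxylase, stood at 0.58 in wild-type mouse 15 and between -0.24 and -0.02 in the other wild types, with knockouts at -0.11, 0.36 and -0.36 (-0.04 ± 0.22, 95% confidence interval -0.54 to 0.46). Cyp2a4, a steroid hydroxylase, differed by -0.06 ± 0.21 and was within 0.10 of Cyp2a5 in every mouse. Their promoter windows matched at 97.7% of aligned positions, and reads of one gene by the probe of the other were not tested. Cyp2a12, a testosterone hydroxylase, differed by -0.24 ± 0.12 (unadjusted p = 0.0771), with its 2 probes at -0.24 each, and by -0.13 without knockout mouse 27.

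The Cyp2d genes act on many drugs in other mammals and on steroids in mice. Among 7 Cyp2d genes the differences ran from -0.10 to 0.22. Cyp2d22, the nearest relative of human CYP2D6, stood at -0.01, -0.05, 0.13, 0.02 and 0.04 in the wild types and 0.35, 0.30 and 0.07 in the knockouts. Mice 27 and 31 were above every wild type and mouse 33 was not, with a difference of 0.22 ± 0.07 (unadjusted p = 0.017, adjusted p = 0.47; -0.26 with the knockout sign turned). Cyp2d9, the testosterone hydroxylase known from male liver, differed by -0.01 ± 0.15 (95% confidence interval -0.35 to 0.34). Cyp2d12 and Cyp2d40 differed by 0.13 ± 0.08 and -0.10 ± 0.07.

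Cyp2e1, the ethanol- and acetone-oxidising form around the central vein, stood at -0.01, 0.04, 0.09, -0.11 and -0.26 in the wild types and at 0.07, 0.23 and 0.04 in the knockouts (0.17 ± 0.09, adjusted p = 0.586). Cyp2j5, an arachidonic acid epoxygenase of liver and kidney, stood between -0.17 and 0.17 in the wild types and at 0.16, 0.24 and 0.23 in the knockouts (0.21 ± 0.09, adjusted p = 0.54). Cyp2j11 and Cyp2j13 differed by -0.10 ± 0.15 and -0.06 ± 0.05. Cyp2r1, the vitamin D 25-hydroxylase, differed by 0.17 ± 0.11.

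The knockout values of Cyp2s1, a form of surface epithelia, were 0.01, 0.07 and 0.06, against -0.03 to 0.01 in the wild types. They did not overlap, but all 8 values lay close to 0 (0.06 ± 0.04, adjusted p = 0.637). The differences of Cyp2t4 and of the fatty acid hydroxylase Cyp2u1 were 0.06 ± 0.05 and -0.09 ± 0.07, and the 2 Cyp2u1 probes gave 0.07 ± 0.07 and -0.25 ± 0.08. The other 9 members, Cyp2b19, Cyp2c37, Cyp2c66, Cyp2d10, Cyp2d13, Cyp2d26, Cyp2j6, Cyp2j9 and Cyp3a25, had differences from -0.37 to 0.17 and unadjusted p of 0.113 or more.

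Much of what varied in these genes varied among the wild types. The SD over the 5 wild types had a median of 0.228 over the 44 members, against 0.109 over all named genes, and 35 of 44 members lay above the latter. An SD above 0.5 was found in 8 members (18.2%), against 2.68% of named genes. They were Cyp2b13 (SD 1.69), Cyp2b9 (1.38), Cyp2c70 (0.772), Cyp2f2 (0.688), Cyp1a2 (0.654), Cyp3a41a (0.583), Cyp3a11 (0.576) and Cyp2c50 (0.538). From the lowest to the highest wild type, Cyp2b13 spanned 23.3-fold, Cyp2b9 10.6-fold and Cyp2c70 4.01-fold. Without mouse 22 these spans were 3.34-fold, 2.79-fold and 2.54-fold. Only 0.0302% of named genes had a larger wild-type SD than Cyp2b13, and 1.34% a larger one than Cyp1a2.

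**Figure D4:**
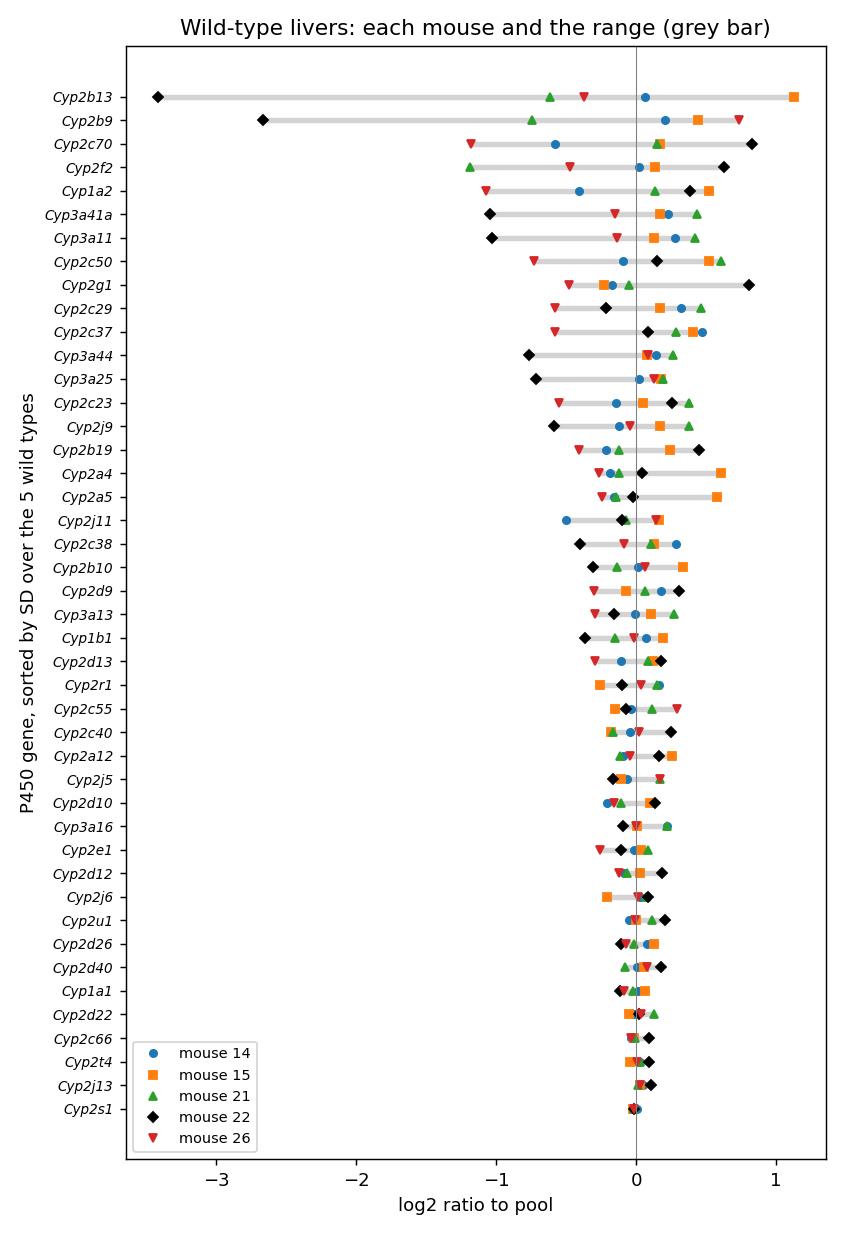
Log2 ratio to the pool of each of the 5 wild-type mice for the 44 P450 genes, sorted by their SD over the wild types, with the range as a grey bar. Mouse 22 is the lowest wild type in Cyp2b13 (-3.41), Cyp2b9 (-2.66) and the Cyp3a genes but Cyp3a13, and the highest in Cyp2c70 (0.82) and Cyp2f2 (0.63).

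Different mice set these ranges. Mouse 22 gave the lowest wild-type value of Cyp2b9, Cyp2b13, Cyp3a11 and Cyp3a41a. Mouse 26 gave the lowest value of Cyp2c70, at -1.18, and of Cyp1a2, at -1.07. Mouse 21 gave the lowest value of Cyp2f2, at -1.19. In 24 of 44 members (54.5%) mouse 22 was the wild type furthest toward the knockouts, against 35.1% of all features, and mouse 21 followed with 9 members. Under the turned sign mouse 22 held that place in 2 of 44 members, against 22.4% of all features, and mouse 15 in 16. As deposited, the difference between genotypes lay further from 0 without mouse 22 in 32 of 44 members, and in 13 with the sign turned. The share of all features was not counted here, so these counts cannot be read as particular to the members. Without mouse 22 and as deposited, 7 members were higher and 10 lower at an unadjusted limma p of 0.05, a level that 16.2% of all features passed. In that fit 16 members (36.4%) did not overlap, against 16.1% of all features, and 0.18% of all features passed the adjusted threshold.

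**Figure D5:**
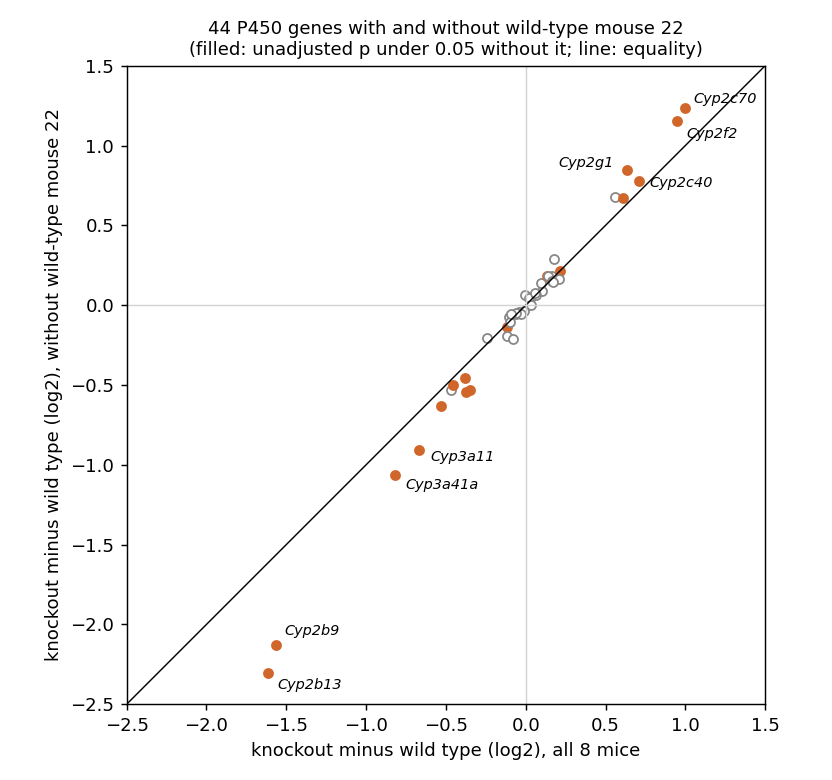
Knockout minus wild type (log2) for the 44 P450 genes, over all 8 mice (horizontal) and without wild-type mouse 22 (vertical), with the line of equality. Cyp2b13 goes from -1.61 to -2.31 and Cyp2g1 from 0.64 to 0.84, and filled points are the 17 genes with an unadjusted p under 0.05 without mouse 22.

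Genes that work with or control these enzymes were counted in the same fit, with 0 of any list at an adjusted p of 0.05 in limma. At an unadjusted p of 0.05 the background is the 9.28% of all features given above, or 11.5% with the knockout sign turned, which again left 0 of any list at the adjusted threshold. Of 10 electron partners and haem supply genes 3 were higher and 7 lower, 0 at an unadjusted p of 0.05, with a median of -0.07. The cytochrome b5 reductase Cyb5r3 stood at 0.32 ± 0.16, the haem-binding Pgrmc2 at -0.28 ± 0.18 and Alas1, the first enzyme of haem synthesis, at -0.42 ± 0.31. Of 25 receptors and transcription factors 8 were higher and 17 lower, 1 and 2 of them at an unadjusted p of 0.05, with a median of -0.05. PXR (Nr1i2) stood at -0.08, -0.16 and -0.43 in knockout mice 27, 31 and 33 and between -0.11 and 0.08 in the wild types (-0.23 ± 0.08, unadjusted p = 0.0235, adjusted p = 0.49). The coactivator Ncoa1 stood at -0.21 ± 0.09 and the AHR partner Arnt at 0.20 ± 0.08. CAR (Nr1i3) stood at -0.10, 0.11 and -0.58 in the knockouts and between -0.05 and 0.06 in the wild types, so that of the 8 mice knockout mouse 33 lay furthest from the pool. Under the turned sign 5 of 10 partners were higher (0 at an unadjusted p of 0.05 in limma), and 15 of 25 receptors and factors were, with 1 higher and 1 lower at that level and PXR at 0.22. CAR falls outside the rule for named genes and was picked after its values were seen.

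Targets of the same receptors outside the P450 families were counted next. Of 25 CAR and PXR targets 10 were higher and 15 lower, 1 and 4 at an unadjusted p of 0.05, with a median of -0.05. The oestrogen sulphotransferase Sult1e1 stood at -0.60 ± 0.12 (unadjusted p = 9.34e-04), the sulphate donor enzyme Papss2 at 0.29 ± 0.07 and Gadd45b at -0.55 ± 0.15. Of 11 AHR targets 5 were higher and 6 lower, 0 and 2 at an unadjusted p of 0.05. The quinone reductase Nqo1 stood at -0.68 ± 0.23, the glutathione transferase Gsta1 at -1.85 ± 0.68 and Tiparp at 0.16 ± 0.08. Gsta1 belongs to both lists, and it had -2.02 in wild-type mouse 22 and -1.89, -1.90 and -3.09 in knockout mice 27, 31 and 33, so that mouse 22 lay among the knockouts as it did for Cyp2b9. Once turned, 17 of 25 CAR and PXR targets and 8 of 11 AHR targets were higher, with 4 and 2 higher and 1 and 1 lower at an unadjusted p of 0.05, and Sult1e1 stood at 0.45, Nqo1 at 0.69 and Gsta1 at 2.74. As deposited, of 29 P450 genes of other families 20 were higher and 9 lower, 5 and 1 at an unadjusted p of 0.05, against 0 and 5 with the sign turned.

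The counts of members known from female liver took the opposite direction with the knockout sign turned. As deposited, of 9 female-biased members 8 were lower and 1, Cyp2c40, was higher, with 4 and 1 of them at an unadjusted p of 0.05 and a median of -0.46. With the sign turned 8 were higher, 5 of them at an unadjusted p of 0.05, and Cyp2c40 was lower (median 0.42). Of 3 male-biased members Cyp2c23 was higher and Cyp2d9 and Cyp2u1 had negative differences of under 0.1 in size, and with the sign turned all 3 were lower. Outside the families, 8 of 14 male-biased genes were higher (median 0.28) and 8 of 20 female-biased genes were higher (median -0.04), with 2 and 0 higher and 1 and 0 lower at an unadjusted p of 0.05. The male-biased Nudt7, a CoA hydrolase, stood at 1.10 ± 0.27, C4a at -0.33 ± 0.13 and the anion transporter Slco1a1 at 2.31 ± 0.91. The female-biased Sult3a1, Prom1 and Sult2a2 stood at -0.31 ± 0.16, -0.13 ± 0.07 and -0.17 ± 0.10. After turning the sign, 8 of 14 male-biased and 15 of 20 female-biased genes were higher, and Nudt7 stood at -1.08 and Slco1a1 at -0.95. In the values as deposited the median of the male-biased genes was 0.88 in wild-type mouse 22 and 0.86 in knockout mouse 33, and that of the female-biased genes was -0.61 and -0.41, so these 2 mice stood together on both lists. Xist lay between -0.11 and 0.36 and the Y-linked Eif2s3y and Uty between -0.37 and 0.36 in all 8 mice. None of the 3 passed an unadjusted p of 0.05 in limma. Here these mice stood at opposite ends, with Xist, Eif2s3y and Uty at 0.36, -0.37 and -0.30 in wild-type mouse 22. In knockout mouse 33 they were -0.11, 0.36 and 0.21.

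Liver zones, inflammation and other cells were read from marker lists, and their part in the P450 values was not tested. Of 12 pericentral genes 3 were higher and 9 lower (median -0.12), 0 and 1 at an unadjusted p of 0.05, and the leading values were -0.45 ± 0.14 for Tbx3, -0.19 ± 0.10 for Lgr5 and 0.32 ± 0.20 for Rgn. Of 13 periportal genes 7 were higher and 6 lower (median 0.04), 1 and 2 at that level, with Aldh1b1 at -0.36 ± 0.11, Pck1 at -0.46 ± 0.16 and Arg1 at 0.21 ± 0.08. Acute phase genes, which the liver makes in inflammation, leaned one way as deposited and the other way with the knockout sign turned. As deposited, 9 of 26 were higher and 17 lower, 0 and 11 at an unadjusted p of 0.05, and 8 did not overlap. Lcn2 stood at -1.79 ± 0.23 (adjusted p = 0.0829), Orm2 at -2.01 ± 0.33 and Saa2 at -1.39 ± 0.26, and wild-type mouse 22, at -0.33, -0.67 and 0.09, lay outside the knockout range in all 3. Under the turned sign 19 were higher and 7 lower, 8 and 0 at an unadjusted p of 0.05, with Lcn2 at 1.83 and Orm2 at 2.12. With that sign 8 of 12 pericentral and 5 of 13 periportal genes were higher, 2 and 2 of them at that level, with 0 and 2 lower.

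The 10 hepatocyte markers had medians of -0.06 to 0.10 in the wild types and -0.02 to 0.21 in the knockouts, close to the pool in all mice, though a ratio to pooled liver cannot show how high these markers are. In bulk liver RNA, fewer cells of a type and less RNA per cell cannot be told apart. Of 8 Kupffer cell markers 1 was higher and 7 lower, of 8 endothelial markers 6 and 2, of 6 stellate cell markers 3 and 3, of 6 cholangiocyte markers 2 and 4, of 6 neutrophil markers 2 and 4 and of 8 lymphocyte markers 8 and 0. At an unadjusted p of 0.05, 3 lymphocyte, 3 endothelial, 1 stellate cell and 1 cholangiocyte marker were higher, and 3 neutrophil, 1 endothelial and 1 cholangiocyte marker lower, with 0 Kupffer cell markers in either direction. The lymphocyte median ran from -0.07 to 0.08 in the wild types and from 0.14 to 0.29 in the knockouts. Under the turned sign 0 lymphocyte, 2 hepatocyte, 2 endothelial, 3 stellate cell, 4 neutrophil, 5 cholangiocyte and 7 Kupffer cell markers were higher. Medians of adipocyte, pancreas and gut or kidney markers lay between -0.26 and 0.19 in every mouse.

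Neighbouring genes lay on both sides of the wild types, and signs here are those as deposited. In the order of GRCm38.p6 the Cyp2 genes of chromosome 7 run from Cyp2s1 through Cyp2b10, Cyp2b13, Cyp2b9 and Cyp2a4 to Cyp2g1, Cyp2a5, Cyp2a12 and Cyp2f2, and among the 13 measured P450 genes of this chromosome 7 were higher and 6 lower. The 3 lower Cyp2b genes lie next to each other, at -0.38, -1.61 and -1.57, and Cyp2g1 and Cyp2f2 further along stood at 0.64 and 0.95. On chromosome 19, 6 of 9 measured Cyp2c genes were higher. The lower Cyp2c29 and Cyp2c38 lie in the first part of the order, and the higher Cyp2c70 and Cyp2c23 are its last genes. On chromosome 5 the 5 lower Cyp3a genes lie next to each other, apart from Cyp3a41b, which was not analysed here. Cyp3a13, the exception, is the first gene of families 1 to 3 on that chromosome.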

How the data were processed

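Liver RNA of 8 single mice, 3 labelled Me1 knockout and 5 labelled wild-type littermate, was compared with a pool of wild-type liver RNA on 2-colour arrays, 1 array per mouse. RNA was purified on spin columns and amplified with an aminoallyl kit, per the labels' protocols. The authors deposited 1 log10 ratio per probe and array. That base is the reading used here, since neither base nor direction is stated, and the sources used here name no background correction or normalization. The ratios were multiplied by the log2 of 10, so all values in the report are log2 ratios computed from the deposited log10 values. Of 39556 probes 23283 had 1 gene symbol, 16273 had none and 0 had several. Through the RefSeq gene table of GRCm38.p6, 16574 probes kept a current symbol, 6594 were updated and 115 were kept as given. Probes of a gene were averaged, which gave 36169 features.

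Genotypes were compared with limma 3.58.1 (lmFit and eBayes, R 4.3.3) over all features, with Benjamini-Hochberg adjustment and a threshold of 0.05. The procedure was tested on simulated data in which every array had the same spread, unlike the arrays here. The labels give no batch or slide. The 44 members and all gene lists were chosen with earlier results of these data known, and the lists overlap. The members named with values were the 3 with the smallest p in each subfamily, the 8 with the widest wild-type SD, those without overlap and well-studied forms set by name. Of each pathway list outside the families, the 3 genes with the smallest p were named, and cell type markers were only counted. Promoter windows, found for 38 members, came from RefSeq and were aligned with Biopython 1.88. Alternatives left out single mice, set array medians to 0, used quantile normalization, array weights, a robust variance prior, 1 probe per gene or the more variable genes, or turned the sign of the knockout arrays. Spot brightness was not used here.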

Additional observations from a re-analysis of the deposited data

Results flagged for a closer look

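Among the 35 P450 genes described by value, 3 had a wild-type mouse that stood apart from the other 4 by more than Dixon's critical value, which chance alone gives in about 1 of 20 groups. Cyp2a5 stood at 0.58 in mouse 15 and between -0.24 and -0.02 in the other wild types. Cyp3a44 stood at -0.77 in mouse 22 and between 0.08 and 0.27 in the others. Cyp2s1 stood at 0.00698 in mouse 14 and between -0.0252 and -0.0163 in the others, a gap that is small beside the spread of the other members.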

How the results depend on the processing

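With any 1 mouse left out, 0 to 2 members passed the adjusted threshold, 1 to 7 were higher and 1 to 10 lower at an unadjusted p of 0.05, and 4 to 16 did not overlap. The highest of each of these counts came without wild-type mouse 22, the lowest higher count (1) without knockout mouse 31, and the lowest lower count (1, with 3 higher) without knockout mouse 33. Without wild-type mouse 14, 15 or 21, 2 members were lower, and without knockout mouse 27 or 31, 7 did not overlap. Of all features, 4.73% (without knockout mouse 33) to 16.2% (without wild-type mouse 22) had an unadjusted p under 0.05 in these fits. Of these fits, only that without mouse 22 had its share of all features without overlap counted, 16.1%. With array weights 2 members passed, Cyp3a16 at -0.55 and Cyp3a41a at -1.04, and 13 were higher and 11 lower at an unadjusted p of 0.05, where 20.4% of all features passed. Without wild-type mouse 22 and knockout mouse 33 the count lower was 10, where 11.7% of all features had an unadjusted p under 0.05 in either direction. There 19 members did not overlap, and the share of all features that did not overlap was not counted. With array medians at 0, 2 members did not overlap, again with no such share counted. With the knockout sign turned 9 members did not overlap, against 10.8% of all features. The cause of these shifts was not tested.

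Members with differences near 0 changed sign under some settings. Leaving out 1 mouse gave -0.22 to 0.0845 for Cyp2a4, -0.24 to 0.12 for Cyp2a5, -0.0378 to 0.38 for Cyp2c50, -0.0948 to 0.0683 for Cyp2c55, -0.0909 to 0.13 for Cyp2d9 and -0.0339 to 0.11 for Cyp3a13. Quantile normalization gave 0.0151 for Cyp2c55 and -0.0187 for Cyp3a13. Array weights gave 0.11 for Cyp2a4, 0.15 for Cyp2a5, 0.0519 for Cyp2c55, 0.0265 for Cyp2d9, 0.0659 for Cyp2j11 and -0.0252 for Cyp3a13. Without wild-type mouse 22 and knockout mouse 33 the values were 0.0678 for Cyp2a4, 0.11 for Cyp2a5, 0.0428 for Cyp2c55, 0.00515 for Cyp2d9 and -0.0291 for Cyp3a13. The more variable Cyp2c50 probe alone gave -0.18.

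Turning the sign of the knockout arrays gave the opposite sign in 31 of the 35 members described by value. Positive values were 0.18 for Cyp1a1, 0.22 for Cyp1b1, 0.17 for Cyp2a12, 0.0332 for Cyp2a4, 0.0327 for Cyp2a5, 0.39 for Cyp2b10, 2.90 for Cyp2b13, 2.37 for Cyp2b9, 0.41 for Cyp2c29, 0.51 for Cyp2c38, 0.00629 for Cyp2d40, 0.24 for Cyp2j11, 0.80 for Cyp3a11, 0.31 for Cyp3a16, 0.96 for Cyp3a41a and 0.42 for Cyp3a44. Negative values were -0.38 for Cyp1a2, -0.61 for Cyp2c23, -0.66 for Cyp2c40, -0.35 for Cyp2c50, -0.75 for Cyp2c70, -0.11 for Cyp2d12, -0.26 for Cyp2d22, -0.0619 for Cyp2e1, -0.60 for Cyp2f2, -0.59 for Cyp2g1, -0.21 for Cyp2j5, -0.16 for Cyp2r1, -0.0338 for Cyp2s1, -0.10 for Cyp2t4 and -0.00481 for Cyp3a13. No paired analysis was possible because no mouse number is shared between the genotypes.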
